A study of Mus musculus with 4 samples.

Results

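Regulatory T (Treg) cells of visceral adipose tissue (VAT) that carried a transcript of Il1r2 and none of Il1rl1, the gene for ST2, were described here from droplet-based 5′ single-cell RNA sequencing of mouse cells. Members were chosen by measured values: a cell belonged to this group when its barcode had 500 or more genes, under 10% mitochondrial counts and a single condition tag, no unique molecular identifier (UMI, which marks 1 captured RNA molecule) of Cd79a, Lyz2, Cd8a or Il1rl1, and 1 or more UMIs of Il1r2. There were 306 such cells among 20492 barcodes, of which 16895 met all limits other than those on Il1rl1 and Il1r2. By condition they were 239 cells on a high-fat diet (HFD), 13 on normal chow (NCD), 40 with Srebf2 deleted (KO) and 14 with intact Srebf2 (WT).

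The samples came from 2 separate experiments. In the diet experiment, 5 male Foxp3thy1.1 PpargTdt mice on HFD for 22 weeks were set against 5 such mice on NCD, all aged 23 to 27 weeks. In the Srebf2 experiment, 4 male Srebf2flox/flox mice were set against 4 Srebf2WT/WT mice at steady state, all carrying Foxp3YFP-cre and aged 25 weeks, so that the Cre recombinase acted where Foxp3 was expressed. All diet mice thus carried a Foxp3 reporter and a Pparg reporter, and all Srebf2 mice, WT included, carried the Foxp3-driven Cre. Live CD3+ CD4+ Foxp3+ cells were sorted, and the cells of all mice of a condition shared 1 tag, so each condition is 1 pool of mice. No difference below has a replicate check, no test was possible, and intervals (95%, exact) cover counting error only, not the spread between mice.

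Il1r2 encodes a decoy receptor that binds interleukin-1 and passes on no signal, and it is known from activated and follicular Treg cells. ST2 is the receptor for interleukin-33 and marks the large population of adipose Treg cells that depends on PPARγ (gene Pparg). Of the other marker genes given for these cells, Tbc1d4 encodes a Rab GTPase-activating protein that controls glucose transporter traffic, Lag3 an inhibitory receptor that binds MHC class II, and Penk the precursor of enkephalins. Il1r2 lies on chromosome 1 from 40084692 to 40125230 in the GRCm38.p6 annotation (gene body), and Il1rl1 lies further along the same chromosome from 40404864 to 40465418. Tbc1d4 lies on chromosome 14 from 101442360 to 101609281, Lag3 on chromosome 6 from 124904359 to 124912434, and Penk on chromosome 4 from 4133536 to 4138815.

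The assignment of a cell to its condition rested on the DNA tag of an antibody, of which these 4 were read. The whole tag identifies the condition and is given in capitals, 5′ to 3′.
HFD: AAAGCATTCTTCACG
NCD: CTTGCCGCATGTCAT
KO: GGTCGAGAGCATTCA
WT: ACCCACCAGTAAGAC
A cell was assigned when 90% or more of the counts of its pool's 2 tags, and at least 10 counts, were of 1 tag. Just inside the tag limit, 1 member had a share between 90 and 92%. Just outside it, 1 cell had a share between 88 and 90%, and 11 cells that met the other limits lay below 90% in all. No member lay less than 50 genes above the limit on genes, 1 cell less than 50 genes below it was left out, and no member had a mitochondrial share of 9% or more. The matrices of the 2 experiments shared 135 barcodes, and 6 members had such a barcode.

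Il1r2-positive cells lacking ST2 were most frequent on HFD. They made up 5.30% of the cells that met the limits on HFD (239 of 4511, 4.66 to 5.99) and 0.263% on NCD (13 of 4938, 0.140 to 0.450). In the Srebf2 experiment they made up 1.01% of KO cells (40 of 3956, 0.723 to 1.37) and 0.401% of WT cells (14 of 3490, 0.219 to 0.672). HFD cells therefore accounted for 78.1% of the group. The group had been proposed with its excess on HFD already known, so these shares are a description.

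Part of this difference lay in ST2 and part in Il1r2. Cells without an Il1rl1 UMI were 82.4% of HFD cells and 21.9% of NCD cells, and they were 41.3% of KO cells and 29.0% of WT cells. Among cells without an Il1rl1 UMI, 6.43% had an Il1r2 UMI on HFD (5.66 to 7.26) and 1.2% on NCD (0.641 to 2.04), and 2.45% in KO (1.75 to 3.32) and 1.38% in WT (0.759 to 2.31). Il1r2 was also found in cells with ST2, in 8.45% on HFD (67 of 793) and 2.46% on NCD (95 of 3855), and in 4.69% in KO (109 of 2322) and 2.42% in WT (60 of 2479). Of all Il1r2-positive cells, 78.1% lacked an Il1rl1 UMI on HFD and 12% on NCD, and 26.8% did in KO and 18.9% in WT.

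Depth and free RNA both bear on such shares, because a UMI can be missed in a shallow cell and can enter a droplet from outside. With each cell thinned to 2000 UMIs, the share of the group was 3.68% on HFD (3.11 to 4.33) and 0.301% on NCD (0.165 to 0.504), and 0.850% in KO (0.579 to 1.21) and 0.471% in WT (0.264 to 0.776). Shallower cells were left out of this count, namely 711 on HFD, 286 on NCD, 311 in KO and 307 in WT. Barcodes of B cells were taken for comparison. They held an Il1r2 UMI in 4 of 124 cases on HFD (3.23%, 0.886 to 8.05) and 5 of 321 on NCD (1.56%). In KO this was 0 of 57 and in WT 3 of 95 (3.16%). A Foxp3 UMI was found in 20.2% (HFD) to 33.6% (NCD) of these barcodes. Whether they include doublets with Treg cells or B cells that express Il1r2 was not tested, so they are not a clean measure of free RNA. The HFD share of 6.43% lay within the interval of the B cell barcodes on HFD. The shares of ST2-lacking NCD and WT cells with an Il1r2 UMI lay at or below those of the B cell barcodes, so these shares alone are not read as expression. The median depth of those B cell barcodes was 4455.5 UMIs on HFD, 7659 on NCD, 6639 in KO and 6298 in WT, above the 3091.5, 3103, 3166 and 3046 UMIs of the ST2-lacking cells in the same order.

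Per UMI, the level of Il1r2 on HFD stood above that of the B cell barcodes. Summed over all cells lacking ST2, Il1r2 stood at 58.2 CPM (counts scaled to a total of 1000000 UMIs) on HFD (54.3 to 62.2) and 4.87 CPM on NCD (2.88 to 7.69), and at 14.2 CPM in KO (11.3 to 17.6) and 6.92 CPM in WT (4.44 to 10.3). In B cell barcodes it stood at 12.9 CPM on HFD (5.57 to 25.4), where 5 of the 8 UMIs were in 1 barcode. It stood at 2.05 CPM on NCD (0.752 to 4.46) and 4.89 CPM in WT (1.01 to 14.3). In KO it was 0, where the interval reached 8.69. The intervals of B cell barcodes and ST2-lacking cells thus overlapped on NCD and in WT. What part of the NCD and WT members was chosen through free RNA was not tested. Over cells with ST2 the level was 47.8 CPM on HFD and 8.76 CPM on NCD, and 19.997 CPM in KO and 9.77 CPM in WT. On both sides of the ST2 split, the level of Il1r2 was thus higher on HFD than on NCD and higher in KO than in WT. The intervals lay apart in each case but take UMIs as independent, and 17 of the 82 UMIs of ST2-lacking KO cells were in 1 cell. By cells, the KO and WT shares of ST2-lacking cells with an Il1r2 UMI overlapped in their intervals (1.75 to 3.32% and 0.759 to 2.31%). Of the HFD members, 110 had a single Il1r2 UMI, just inside the limit, and 129 had 2 or more, while 1 of 124 B cell barcodes had 2 or more.

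**Figure D1:**
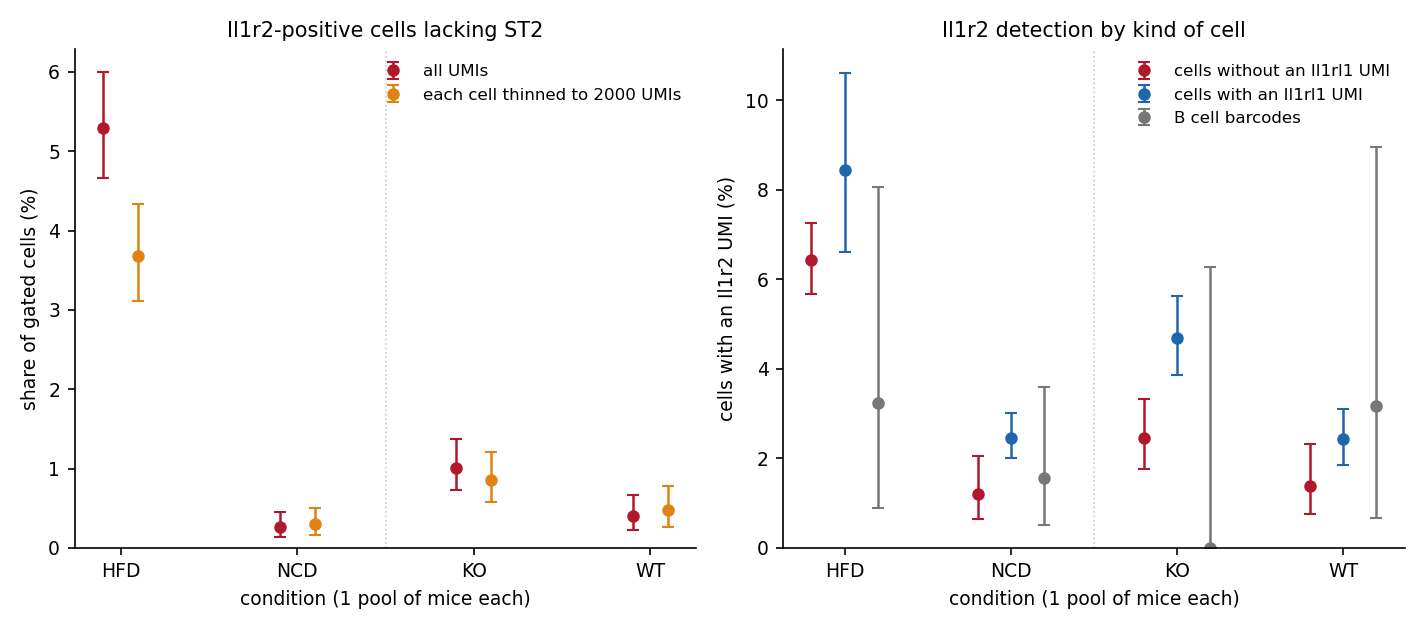
Left, share of gated cells that were Il1r2-positive and lacked ST2 in each condition, from all UMIs and with each cell thinned to 2000 UMIs. Right, share of cells with an Il1r2 UMI among cells without and with an Il1rl1 UMI and among B cell barcodes (Cd79a with Cd79b or Ms4a1). Points are shares and bars exact 95% binomial intervals. HFD, at 5.30%, stands above NCD, KO and WT in the left panel, while the B cell barcodes of the right panel have wide intervals.

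The sorted identity of these cells was checked against its genes. Cd3e, a subunit of the T cell receptor complex, was found in 236 of 239 HFD members, and Cd4 in 74.9% of them. Foxp3, the lineage factor of Treg cells, had a UMI in 53.1% of HFD members (46.6 to 59.6), 61.5% of NCD members, 65% of KO members and 7 of 14 WT members. In B cell barcodes a Foxp3 UMI was found in 20.2% on HFD, 33.6% on NCD, 29.8% in KO and 27.4% in WT. Per UMI, Foxp3 was lower in HFD members, at 103 CPM (89.8 to 117), than in HFD cells lacking both ST2 and Il1r2, at 158 CPM (151 to 165). Ikzf2, which encodes Helios, stood at 1223 CPM in HFD members and 994 CPM in the Il1r2-negative cells, and Ctla4, an inhibitory receptor of Treg cells, at 716 and 835 CPM, both less than 1.5-fold apart.

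Of the marker genes other than Il1r2, Tbc1d4 and Lag3 had their highest level in HFD members, while Penk was high in both HFD and KO members. Tbc1d4 stood at 178 CPM in HFD members, 28.7 CPM in NCD members, 88.2 CPM in KO members and 42.4 CPM in WT members. Lag3 stood at 91.0 CPM in HFD members, 14.3 CPM in NCD members, 33.6 CPM in KO members and 0 in WT members, where 3 counts would be 31.8 CPM. Penk stood at 298 CPM in HFD members, 86.0 CPM in NCD members, 353 CPM in KO members and 42.4 CPM in WT members. The interval of the KO level, given below, included the HFD level, and Penk was found in 24.7% of HFD members and 15% of KO members. NCD and WT members hold few molecules: their values rest on 2, 1 and 6 UMIs of Tbc1d4, Lag3 and Penk in NCD and on 4, 0 and 4 in WT. Of HFD members, 129 of 239 had a Tbc1d4 UMI, 74 a Lag3 UMI and 59 a Penk UMI, 14 had all 3, and 67 (28.0%) had none. In NCD members 11 of 13 had none of the 3, as did 24 of 40 KO members and 11 of 14 WT members.

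Against the HFD cells that lacked both ST2 and Il1r2 (3479 cells), all 3 markers were higher in HFD members. The log2 ratio, with 0.5 added to each sum, was 1.95 for Penk (1.81 to 2.10), 1.37 for Lag3 (1.12 to 1.62) and 0.61 for Tbc1d4 (0.45 to 0.77). A UMI was found in 54.0% of members and 22.6% of Il1r2-negative cells for Tbc1d4, in 31.0% and 6.87% for Lag3, and in 24.7% and 6.38% for Penk. Penk was unevenly spread, with 9 members holding 50% of its 659 UMIs and up to 54 in 1 cell, whereas 24 members held 50% of the 393 Tbc1d4 UMIs. The members were also the deeper cells, at a median of 6178 UMIs against 3014. Among cells with a Foxp3 UMI, the log2 ratios of the 3 genes were 1.58, 0.40 and 0.14 in the same order, so those of Lag3 and Tbc1d4 were smaller there.

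Of 6724 genes that reached 20 CPM in either group, 964 (14.3%) were 1.5-fold or more higher in HFD members and 740 (11%) were 1.5-fold or more lower. Such calls go by size alone, with no test behind them. Gene lists were read at 5 CPM or more by the same fold, where 16.5% of 10028 genes were higher and 13.5% lower, and the median log2 ratio of all genes was 0.03.

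Genes of activation through TNF receptors and NF-κB were higher as a group, with 7 of 15 above the fold, 0 below it and a median log2 ratio of 0.51. Tnfrsf9, which encodes 4-1BB, was found in 68.6% of HFD members and 20.2% of Il1r2-negative cells, at 329 CPM (306 to 354) and 139 CPM (133 to 146). Tnfrsf4, which encodes OX40, stood at 800 and 447 CPM, and Cd83, a surface protein of activated lymphocytes, at 226 and 68.0 CPM (log2 ratio 1.73). Batf, a transcription factor needed for tissue Treg cells, stood at 367 and 142 CPM, and Ebi3, a subunit of interleukin-35, at 92.8 and 43.4 CPM. Outside that list, Tnfrsf8, which encodes CD30, stood at 23.5 and 2.72 CPM, a log2 ratio of 3.11 (2.46 to 3.78). Tnfrsf18, Tnfrsf1b, Traf1 and Nfkbia stayed below the fold, and Icos, a costimulatory receptor, had a log2 ratio of −0.27. The chemokine receptor gene Ccr8, a marker of activated tissue Treg cells, stood at 176 CPM in members (51.5% of cells) and 50.3 CPM in Il1r2-negative cells (9.72%). Bhlhe40, a transcription factor of activated T cells, stood at 458 and 159 CPM in the same comparison.

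Genes of resting and lymph node-homing cells were the lowest list, with 10 of 12 below the fold, 0 above it and a median log2 ratio of −2.04. Ccr7, the lymph node-homing receptor, stood at 41.2 CPM in HFD members and 166 CPM in Il1r2-negative cells, and S1pr1, the receptor for egress into lymph, at 48.0 and 204 CPM. Klf2, the factor that drives S1pr1, stood at 112 and 486 CPM, and Bach2, a repressor of effector genes, at 37.6 and 165 CPM. Igfbp4 had 1 UMI in HFD members against 40.9 CPM in Il1r2-negative cells. Tcf7, which encodes TCF-1 (243 and 309 CPM), and Dtx1 (log2 ratio −0.55) lay within the fold.

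Genes of the type 1 program were lower too, with 5 of 9 below the fold, 0 above it and a median of −1.23. The chemokine gene Ccl5 stood at 179 CPM in members and 575 CPM in Il1r2-negative cells, Nkg7, a protein of cytotoxic granules, at 37.6 and 88.6 CPM, and Ifng at 9.5 and 25.8 CPM. Cxcr3, the chemokine receptor of type 1 cells, lay nearer, at 173 CPM in members (54.4% of cells) and 209 CPM in Il1r2-negative cells (33.7%). Ly6c1 and Ly6c2, which share sequence and so may share reads, stood at 10.9 and 1.36 CPM in members and 134 and 27.3 CPM in Il1r2-negative cells.

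Inhibitory receptors and ectoenzymes differed among themselves, with 3 of 11 above the fold, 1 below it and a median of 0.36. Besides Lag3, Havcr2, which encodes TIM-3, stood at 6.34 and 1.92 CPM and Cd160 at 11.8 and 5.59 CPM, whereas Entpd1, the ectoenzyme CD39, stood at 18.6 and 36.5 CPM. Against cells of like depth the log2 ratio of Havcr2 was 0.11. Pdcd1, which encodes PD-1, had a UMI in 69.0% of HFD members and 28.1% of Il1r2-negative cells, but per UMI the levels were 286 and 211 CPM, under the fold. Of the follicular Treg list, 2 of 12 were above the fold and 0 below it: Tox2 (92.3 and 39.1 CPM) and Angptl2 (10.4 and 3.59 CPM). Cxcr5, the follicle-homing receptor, stood at 20.8 and 18.4 CPM, and Bcl6, the follicular lineage factor, at 42.1 and 45.2 CPM. Il21, a cytokine of follicular T cells, had no UMI in HFD members and 21 in Il1r2-negative cells.

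Treg core genes had a median log2 ratio of 0.00, with 0 of 12 above the fold and 3 below it. The 3 were Foxp3, Lrrc32, which encodes the TGF-β-presenting protein GARP (34.8 and 55.6 CPM), and Gpr83 (9.05 and 19.4 CPM). Foxp3 and Lrrc32 lay within the fold without cycling cells (log2 ratios −0.33 and −0.34) and against cells of like depth (−0.28 and −0.24). Of the other IL-1 family receptors and adaptors, 0 of 9 were above the fold and 1 below it, and the 1 was Irak2, a signalling kinase (32.1 and 51.0 CPM), which lay within the fold without cycling cells (−0.41) and at like depth (−0.49). Il1rap, the accessory chain shared by the IL-1 receptor and ST2, stood at 9.96 and 9.74 CPM. Il1r1, the signalling IL-1 receptor, stood at 0.905 CPM (2 UMIs) and 0.719 CPM (9 UMIs).

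Genes of ST2-high adipose Treg cells showed no common direction against Il1r2-negative cells, with 2 of 14 above the fold, 4 below it and a median of −0.12. Ccr2 (16.3 and 55.7 CPM), Fgl2 (22.2 and 58.3 CPM), Anxa1 (9.5 and 28.7 CPM) and Gzmb (1 UMI and 7.99 CPM) were lower. Areg, the tissue repair factor amphiregulin, stood at 287 and 304 CPM and Gata3 at 131 and 154 CPM. Of the peripheral and type 3 Treg list, 2 of 6 were above the fold and 2 below it: Il23r stood at 5.43 and 0.160 CPM and Ccr6 at 24.0 and 13.1 CPM, against Tmem176a at 4.53 and 8.47 CPM and Tmem176b at 7.24 and 15.6 CPM.

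Interferon response genes were lower, with 6 of 9 below the fold and a median of −0.73, led by Ifit1 (2.72 and 7.59 CPM) and Usp18 (6.79 and 14.7 CPM). Of the antigen receptor early response list, 2 of 11 were above the fold, Egr2 (25.8 and 12.5 CPM) and Myc (117 and 77.1 CPM), and 3 below it, Cd69, Ier2 and Dusp2, with a median of −0.10. Dissociation and heat shock genes had 7 of 12 below the fold and a median of −0.61, with Jun at 45.3 and 102 CPM. Cholesterol synthesis genes had 6 of 17 above the fold, 1 below it and a median of 0.32, with Pmvk at 31.2 and 10.9 CPM and Cyp51 at 25.8 and 13.3 CPM. The median was 0.03 both without cycling cells and against Il1r2-negative cells of like depth.

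**Figure D2:**
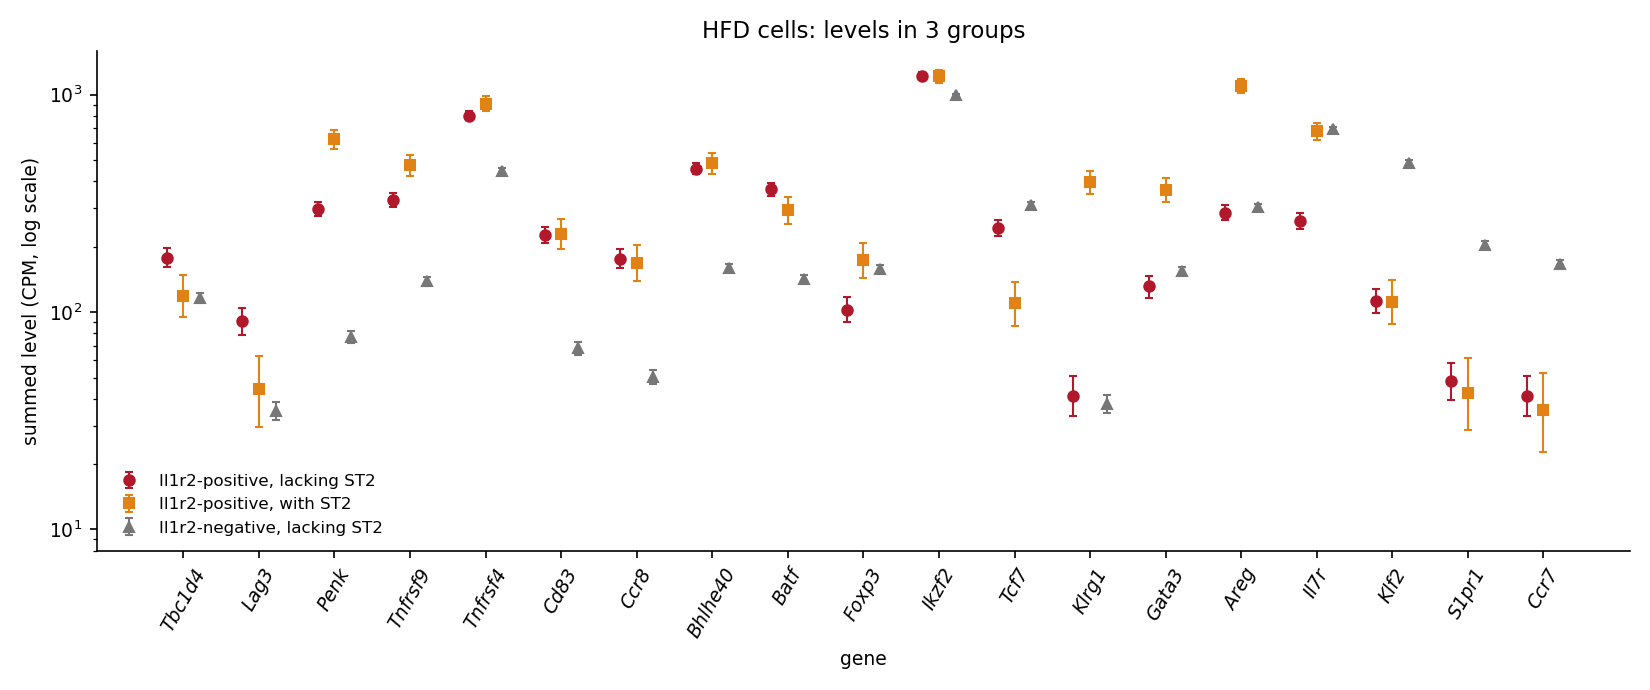
Summed level in CPM (log scale) of 19 named genes in HFD cells that were Il1r2-positive and lacked ST2, Il1r2-positive with ST2, and Il1r2-negative lacking ST2. Points are levels and bars exact 95% Poisson intervals. Klrg1, Gata3 and Areg separate the Il1r2-positive groups by ST2, while Ccr8, Cd83, Bhlhe40 and Klf2 lie close together in them.

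Proliferation genes were higher in 12 of 12 cases, at a median log2 ratio of 2.03, with Top2a, the DNA topoisomerase of dividing cells, at 241 and 56.1 CPM and Mki67, the proliferation antigen Ki-67, at 224 and 52.0 CPM. Of HFD members 14.6% had 3 or more UMIs of Mki67 and Top2a (35 of 239), against 1.38% of Il1r2-negative cells (48 of 3479). These 35 cells had a median of 22071 UMIs and held 36.9% of all UMIs of the members. With 1 or more such UMIs the shares were 30.5% (73 of 239) and 7.1% (247 of 3479), and the limit of 3 is reached more readily in deep cells. The 12 leading genes by the rule were Hist1h3d, Dnph1, Cobl, H1fx, Hist1h1a, Tnfrsf8, Mybl2, Cenps, H2-Eb1, Cdca5, Cdc6 and Cenph.

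Both the share of Il1r2-positive cells and that of cycling cells were higher in deeper cells. When the members were divided into 4 bands of depth of 59 or 60 cells, the share of ST2-lacking HFD cells with an Il1r2 UMI was 2.17% at 1035 to 4281 UMIs, 11.4% at 4313 to 6178, 20.6% at 6212 to 10596 and 43.5% at 10600 to 51086. In the deepest band 56.7% of members (43.2 to 69.4) and 52.6% of Il1r2-negative cells (40.9 to 64.0) were cycling, and in each of the other bands at most 1.69% of either. With Il1r2-negative cells weighted to the members' depth, the proliferation list had 0 of 12 above the fold, 2 below it and a median of −0.28, the opposite direction.

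**Figure D3:**
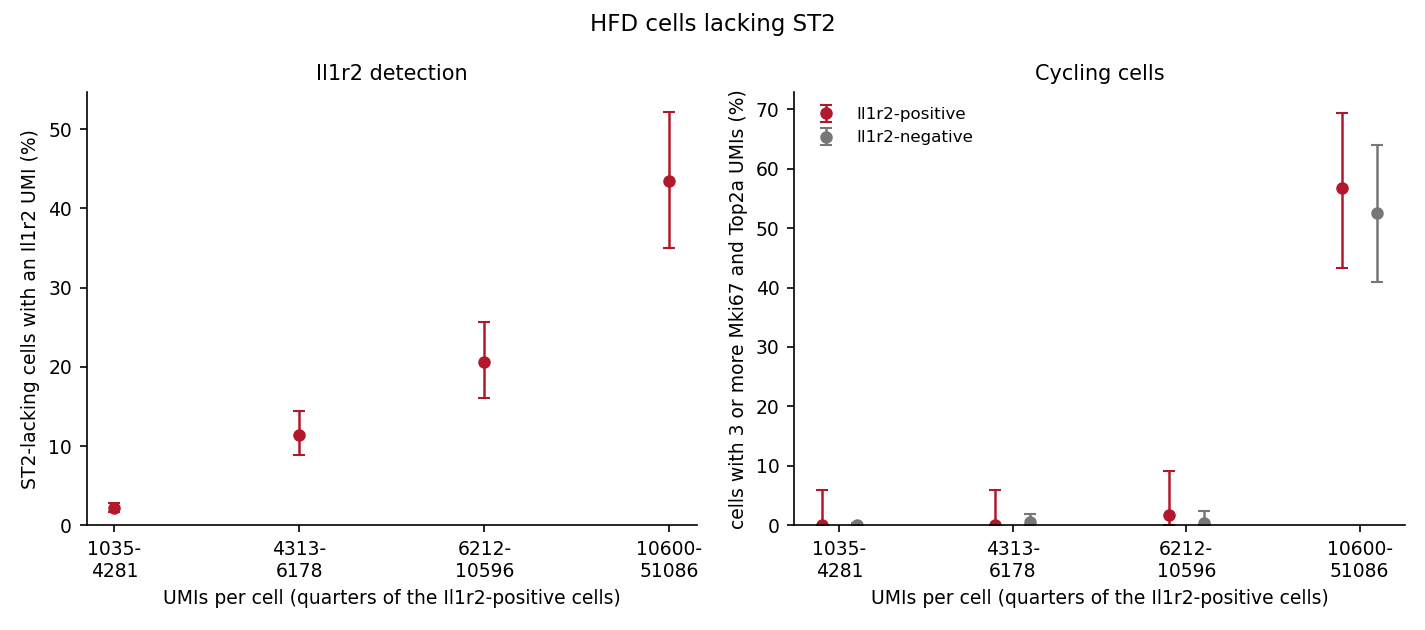
HFD cells lacking ST2, in 4 bands of UMIs per cell that each hold about the same number of Il1r2-positive cells. Left, share of cells with an Il1r2 UMI, which is 2.17% in the shallowest band and 43.5% in the deepest. Right, share of cycling cells (3 or more Mki67 and Top2a UMIs) among Il1r2-positive and Il1r2-negative cells, which overlap in their exact 95% binomial intervals in the deepest band.

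The activation and resting patterns held under both of these changes. Without cycling cells, 737 of 6678 genes (11%) were higher by the fold and 555 (8.31%) lower. Of all genes at 5 CPM, 15.3% were then higher and 11% lower. The TNF receptor and NF-κB list had 10 of 15 higher and a median of 0.78, the resting list 10 of 12 lower and a median of −1.81, and the type 1 list 5 of 9 lower and a median of −0.84. Against Il1r2-negative cells weighted to the same depth, 469 of 6601 genes (7.1%) were higher and 332 (5.03%) lower, and the 3 lists had medians of 0.60, −1.23 and −1.06. Interferon and heat shock genes came nearer to equal levels at that depth, with medians of −0.15 and 0.00, and Usp18 (−0.30), Jun (−0.48), Ier2 (−0.38) and Dusp2 (−0.07) lay within the fold. Tbc1d4, Lag3 and Penk had log2 ratios of 1.04, 1.77 and 2.49 without cycling cells, and 1.13, 1.24 and 1.37 against cells of like depth.

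**Figure D4:**
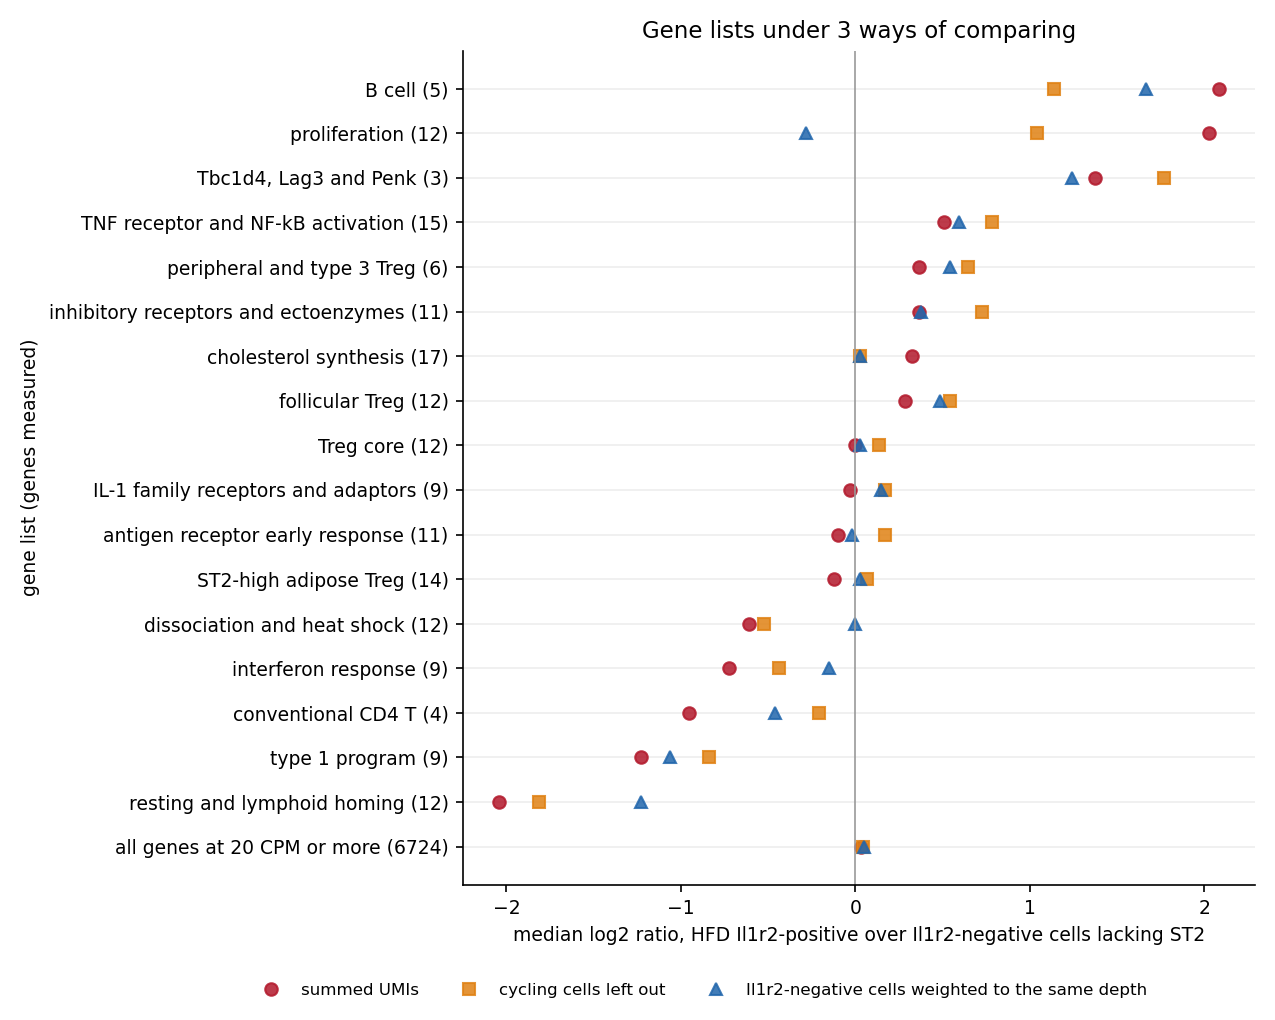
Median log2 ratio of each gene list, HFD Il1r2-positive over Il1r2-negative cells lacking ST2, as summed UMIs, without cycling cells, and with the Il1r2-negative cells weighted to the members' depth. The number of genes measured stands after each list name. Proliferation moves to the other side of 0 under the weighting, whereas TNF receptor and NF-κB activation stays above it and resting and type 1 genes below it.

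Genes that led the comparison once cycling cells were left out were named by a second rule, chosen after the data were seen: the 20 highest and 20 lowest with a UMI in 10% or more of the cells of the higher group. Those highest included Tnfrsf8, Dusp14, a phosphatase of the MAP kinase pathway, Penk, Ccr8, Cd83, Cd74, the invariant chain of MHC class II, and Stx11, a syntaxin of vesicle release. The shares and levels in this paragraph are over all cells, cycling ones included, at median depths of 6178 UMIs in HFD members and 3014 in Il1r2-negative cells. Dusp14 was found in 23.8% of HFD members and 3.31% of Il1r2-negative cells, and Stx11 in 55.6% and 12.2%. Slc7a10 and Muc16, an amino acid transporter and a mucin, had a UMI in 16.3% and 10.5% of members, against 1.55% and 0.891% of Il1r2-negative cells. Those lowest included Ly6c1, S1pr1, Klf2, Ccr7, Satb1, Txnip, Il6ra, Klf3 and Bach2. Cd55, a complement regulator, stood at 4.98 CPM in members and 46.0 CPM in Il1r2-negative cells.

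Genes of other cell types were looked for in the same cells. Of the 9 stroma and endothelium genes 5 were at 0 in HFD members and the summed level was 50.7 CPM, against 265.8 CPM in Il1r2-negative cells, where 1 cell held 35.1% of it. Col3a1, Sparc, Dcn and Hbb-bt, which stood among the 12 lowest by the rule, had no UMI in HFD members and came from at most 0.489% of Il1r2-negative cells. Fabp4, also among them, came from 1.03% of those cells, with 1 UMI in the members. CD8 T and NK genes summed to 15.4 CPM in members and 31.2 CPM in Il1r2-negative cells, neutrophil genes to 3.17 and 9.10 CPM, and myeloid genes to 156 and 139 CPM. The list of conventional CD4 T cell genes summed to 192 and 291 CPM, with Cd40lg, the CD40 ligand, at 38.0 and 108 CPM. The B cell list summed to 600 CPM in members and 154 CPM in Il1r2-negative cells, with 4 of its 9 genes at 0 in members. Most of that was Cd74, found in 69.0% of members and 20.7% of Il1r2-negative cells, whereas H2-Ab1, a chain of MHC class II, was found in 7.11% and 1.52%, with 2 cells holding 50% of its 73 UMIs. What part such UMIs play in the other results was not tested.

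The HFD cells lacking ST2 were also divided by their number of Il1r2 UMIs, and Foxp3 was lowest in those with 5 or more. With cycling cells left out, a choice made after the data were seen, Tbc1d4 stood at 122 CPM in ST2-lacking HFD cells with 0 Il1r2 UMIs, 224 CPM with 1, 225 CPM with 2, 265 CPM with 3 to 4 and 300 CPM (246 to 361) with 5 or more. Lag3 stood at 35.0, 86.6, 110, 135 and 164 CPM over the same steps, Ccr8 at 51.3, 193, 234, 248 and 305 CPM, and Bhlhe40 at 156, 442, 527, 539 and 687 CPM. The median depth of these steps was 2985, 4743, 6525, 6026.5 and 8368 UMIs, and what part depth plays was not tested. Neighbouring steps from 1 UMI up overlapped in their intervals for these 4 genes. Over all cells, cycling ones included, Lag3 kept this order, at 35.1, 64.4, 95.8, 96.7 and 115 CPM. Tbc1d4 did not, at 116, 173, 208, 150 and 189 CPM, nor did Ccr8, at 50.3, 147, 198, 165 and 208 CPM, or Bhlhe40, at 159, 377, 512, 348 and 606 CPM.

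Foxp3 stood at 161, 159, 166 and 122 CPM up to 4 Il1r2 UMIs and at 62.7 CPM (39.7 to 94.1) with 5 or more, where 37.5% of cells had a Foxp3 UMI and the median depth was the highest, at 8368 UMIs. Over all cells Foxp3 stood at 158, 134, 155, 94.6 and 48.5 CPM (33.2 to 68.5 at 5 or more). The cells with 5 or more had other Treg genes: Ikzf2 was found in 97.5% of them, Ctla4 in 95% and Izumo1r, which encodes folate receptor 4, in 95%, with Tbc1d4 in 87.5%. Ikzf2 stood at 1439 CPM there and 991 CPM with 0 Il1r2 UMIs, Ctla4 at 600 and 839 CPM, and Cd40lg at 24.5 and 111 CPM. Penk followed no such order, at 70.3, 161, 956, 244 and 491 CPM, and rested on few cells at each step.

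**Figure D5:**
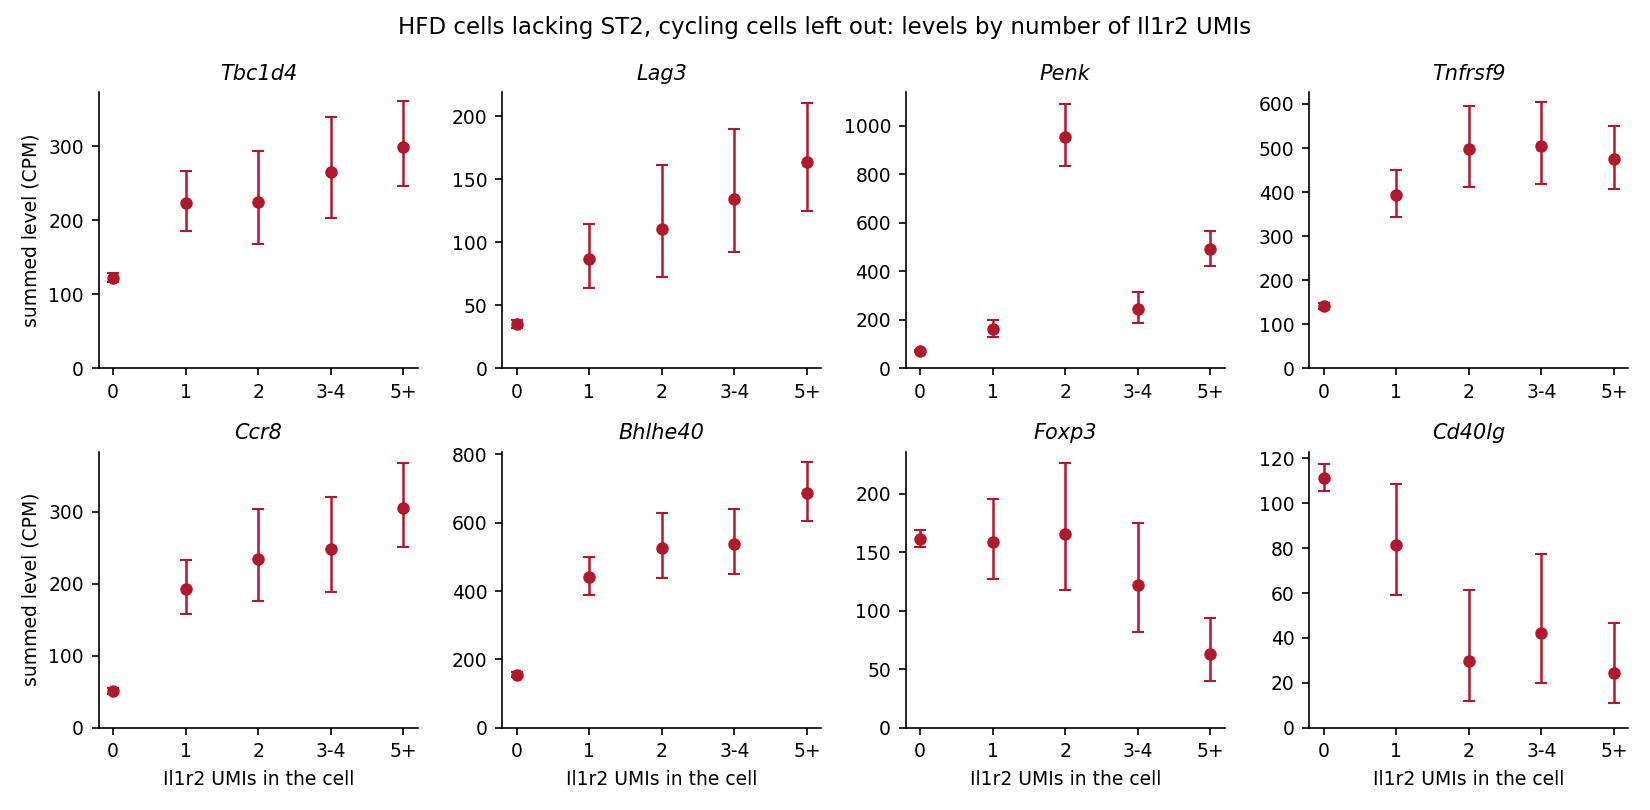
Summed level in CPM of 8 genes in HFD cells lacking ST2, without cycling cells, by the number of Il1r2 UMIs in the cell (3431, 101, 33, 30 and 40 cells). Points are levels and bars exact 95% Poisson intervals. Tbc1d4, Lag3, Ccr8 and Bhlhe40 lie highest at 5 or more Il1r2 UMIs, and Foxp3 and Cd40lg lie lowest there, without cycling cells.

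Il1r2-positive HFD cells with and without ST2 differed in adipose Treg genes. Against the 67 HFD cells with both Il1r2 and Il1rl1 UMIs, 562 of 6766 genes (8.31%) were higher in the members and 675 (9.98%) lower. Of the ST2-high adipose Treg list 16 of 16 were lower, at a median log2 ratio of −1.95, beside 14.6% of all genes at 5 CPM. A gene was counted when it reached 5 CPM in either group. List genes under 5 CPM in the members thus entered only through the cells with ST2, and their direction was set by that minimum. Klrg1, an inhibitory receptor of effector Treg cells, was found in 11.7% of members and 64.2% of cells with ST2, at 41.2 and 395 CPM. Gata3 stood at 131 and 364 CPM, Areg at 287 and 1101 CPM, and Pparg at 6.79 and 23.5 CPM. The activation genes lay close, with Ccr8 at 176 and 169 CPM, Cd83 at 226 and 229 CPM and Bhlhe40 at 458 and 483 CPM, and the resting list had a median of 0.20. Penk was lower in members, at 298 and 623 CPM, while Tbc1d4 (178 and 119 CPM) and Lag3 (91.0 and 44.1 CPM) were higher. Tcf7 was higher in members as well, at 243 and 110 CPM, and Il7r, the interleukin-7 receptor, was lower, at 263 and 679 CPM.

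HFD cells with 1 Il1rl1 UMI, just outside the limit (26 cells), had Klrg1 in 42.3%, Tbc1d4 in 19.2% and Lag3 in 15.4%, against 11.7%, 54.0% and 31.0% of the 239 members. In the 41 cells with 2 or more Il1rl1 UMIs the shares were 78.0%, 31.7% and 17.1%. Among NCD, KO and WT members, Klrg1 was found in 38.5%, 37.5% and 57.1%, and whether these include cells with ST2 in which Il1rl1 was not captured was not tested. In cells with an Il1rl1 UMI count of 2 or more, Klrg1 was found in 98.8% on NCD, 92.6% in KO and 97.9% in WT.

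Against other activated cells, namely the 704 HFD cells with a Tnfrsf9 UMI and neither ST2 nor Il1r2, the members differed less. Of 6685 genes 506 (7.57%) were higher and 479 (7.17%) lower, and the TNF receptor and NF-κB list had a median of −0.05, where Tnfrsf9 itself is biased by the choice of these cells. Cd83 (log2 ratio 0.73), Batf (0.74), Bhlhe40 (0.65), Ccr8 (0.55) and Penk (0.63) were higher in members by the fold, while Lag3 (0.41) and Tbc1d4 (0.25) were not. Without cycling cells 5.41% of 6649 genes were higher and 6.18% lower, and Lag3 had a log2 ratio of 0.66 and Tbc1d4 of 0.52. With cycling cells included, the resting list had 9 of 12 lower and a median of −0.99, and the type 1 list 6 of 9 lower and a median of −1.45, beside 10.4% of all genes at 5 CPM. The median depth was 6178 UMIs in members and 3666.5 in the Tnfrsf9-positive cells, and what part depth plays here was not tested. Of the members, 164 of 239 had a Tnfrsf9 UMI. Members made up 18.9% of all Tnfrsf9-positive ST2-lacking cells on HFD (164 of 868), against 4.00% on NCD (6 of 150), 5.94% in KO (17 of 286) and 3.74% in WT (7 of 187).

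The same comparison within the other conditions rested on fewer cells. In KO, 1420 of 7179 genes (19.8%) were higher in the 40 members than in Il1r2-negative cells and 1021 (14.2%) lower. In NCD these were 34.4% and 15.8% of 7084 genes, and in WT 32% and 20% of 7542, with 13 and 14 members. The TNF receptor and NF-κB list had a median of 0.64 in KO (8 of 15 higher, 0 lower), 0.75 in NCD (10 higher, 1 lower) and 0.39 in WT (7 higher, 0 lower), beside 22.7%, 35.7% and 32.1% of all genes higher at 5 CPM. Ccr8 had log2 ratios of 2.03 in KO, 2.91 in NCD and 1.78 in WT, Tnfrsf9 of 1.87, 2.19 and 1.2, and Cd83 of 3.26, 2.89 and 2.37. Klf2 had log2 ratios of −0.85, −0.23 and −1.15 in the same order. Single cells weighed heavily in these sums. In NCD members 18 of 25 Tnfrsf9 UMIs, 11 of 17 Ccr8 UMIs and 3 of 8 Cd83 UMIs were each from 1 cell. In WT members that were not cycling these were 10 of 26, 9 of 16 and 6 of 13. The B cell list was high in KO and WT members, where 1 cell held 72.8% and 84.3% of its UMIs.

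Directly between conditions, HFD members had 2209718 UMIs in sum and NCD members 69783, so that 1 UMI in NCD members equals 14.3 CPM. At 20 CPM or more, 1278 of 7168 genes (17.8%) were higher in HFD members and 2629 (36.7%) lower, with a median of all genes of −0.25. With each gene taken relative to that median, 1775 were higher and 1956 lower. Of the ST2-high adipose Treg list, 0 of 16 were higher and 15 lower (median −2.64), beside 19% and 37.7% of all genes at 5 CPM, with Klrg1 at 41.2 and 229 CPM. A single UMI in NCD members was enough to pass that minimum, so a list gene under 5 CPM in HFD members could only be lower. In NCD members Ccr1 and Ccr3 had 1 UMI each, and Pparg, Ccr2 and Cyp11a1 had 2 each. Il7r stood at 263 CPM in HFD members (242 to 285) and 645 CPM in NCD members (470 to 863). Tbc1d4 had a log2 ratio of 2.31 (0.77 to 5.68), Lag3 of 2.08 (0.17 to 7.98) and Penk of 1.68 (0.66 to 3.25). The log2 ratio was −0.51 for Ccr8 (−1.17 to 0.33) and −0.15 for Tnfrsf9 (−0.69 to 0.52), and Ikzf2 stood at 1223 and 1218 CPM. Foxp3 stood at 103 and 201 CPM (−1.01, −1.74 to −0.07). These intervals take UMIs as independent and are no test. In NCD members 1 cell held the 2 Tbc1d4 UMIs, and Lag3 had 1 UMI. Single NCD cells held 18 of 25 Tnfrsf9 UMIs and 11 of 17 Ccr8 UMIs. By cells, Tnfrsf9 was found in 164 of 239 HFD and 6 of 13 NCD members, and Ccr8 in 123 of 239 and 4 of 13. The median depth of the members was 6178 and 4717 UMIs.

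The genes named by the rule in this comparison at 50 CPM were proliferation genes on the higher side: Top2a, Pclaf, Tyms, Rrm1, Rrm2 and 3 histone genes had no UMI in NCD members. With 3 counts standing for the 0 of all NCD members, Top2a was 5.61-fold higher in HFD members and Tyms 3.53-fold higher. No NCD member had 3 or more Mki67 and Top2a UMIs, where 0 of 13 allows up to 24.7% of cells (exact binomial), but 4 of 13 (30.8%) had 1 or more, as did 30.5% of HFD members. On the lower side, Atf3, a stress response factor, stood at 8.15 CPM in HFD members and 444 CPM in NCD members, where 2 cells held its 31 UMIs. Arc stood at 9.05 and 487 CPM, with all 34 UMIs of NCD members in 1 cell, and Cxcl3 and Dusp8 were likewise from 1 cell. Ltb4r1, the receptor for leukotriene B4, stood at 5.43 and 129 CPM, from 4 NCD cells. Igfbp7, Nedd4 and Sytl3 rested on 4, 4 and 5 UMIs in NCD members.

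Srebf2, the deleted gene, was first checked over all Il1r2-negative ST2-lacking cells, where it stood at 7.02 CPM in KO cells (4.99 to 9.60) and 67.3 CPM in WT cells (58.9 to 76.7). Between KO and WT members, with 238136 and 94354 UMIs, it had 0 UMIs in 40 KO cells and 4 UMIs in 14 WT cells, all 4 in 1 cell, so the deletion could not be checked within the members. The 1 cycling WT member held 37.4% of the UMIs of WT members and the 2 cycling KO members 11.7% of those of KO members. That WT cell held all UMIs of Srebf2, Penk, Tpx2, Kntc1, Cdc6 and Nusap1 in WT members, and 5 of the 10 of Idi1. Of 7694 genes 1806 (23.5%) were higher in KO members and 2231 (29%) lower, with a median of −0.10. Cholesterol synthesis genes had a median of −1.34 (4 of 15 higher, 11 lower), with Idi1 at 37.8 and 106 CPM (9 and 10 UMIs) and Hmgcs1 at 12.6 and 53.0 CPM (3 and 5 UMIs). Without cycling cells the median was −1.36 (3 of 14 higher, 9 lower), and of all genes at 5 CPM 27.8% were higher in KO members and 32.4% lower with cycling cells included. A single UMI in WT members was enough to pass that minimum. Penk stood at 353 CPM in KO members (281 to 437) and 42.4 CPM in WT members (11.6 to 109), with 84 UMIs in 6 KO cells and 4 UMIs in 1 WT cell. Irak2 had 25 UMIs in 14 KO cells and 0 in WT cells, 3.30-fold higher with 3 counts standing for that 0. Sdcbp2 had 23 UMIs in 14 KO cells and 0 in WT cells. Lrrc32 had 18 UMIs in 9 KO cells and 0 in WT cells. Nrgn and Pid1 came from 1 KO cell each, Cxcl2 had 75 of 164 UMIs in 1 KO cell, and Zeb2 and Id3 were spread over 4 and 6 KO cells. On the lower side Gzmb, Tpx2, Kntc1, Cdc6 and Nusap1 came from 1 WT cell each, and Xpc, Dstn and Hus1 had 5 to 7 UMIs in WT members.

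The members held many T cell receptor segments. Judged by the Trbv segment with the most UMIs in a cell, HFD members used 19 segments, and the most frequent, Trbv12-2, led in 15.0% of 234 cells (10.6 to 20.2). In Il1r2-negative ST2-lacking HFD cells the same segment led in 12.3% of 3157 cells (11.2 to 13.5), and 24 segments were seen. Trbv3 followed in both groups, at 10.7% and 11.4%. In KO members Trbv12-2 and Trbv3 led in 4 of 36 cells each.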

How the data were processed

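Each pool was deposited as a matrix of raw UMI counts per gene and barcode, with antibody tag counts as further rows, per the file headers. The Srebf2 pool's header names Cell Ranger 7.1.0 and that of the diet pool 7.0.1, whereas the submitters' processing notes give 7.0.1 and mm10 for both. The sources used here do not state how the authors filtered cells. The members, gene lists and alternatives were chosen with earlier results of these data known.

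Barcodes were kept by the limits given with the results (9036 barcodes in the Srebf2 pool and 11456 in the diet pool, of which 7446 and 9449 met them). Barcodes with both tags were dropped as doublets, but doublets within a condition remain, and no doublet caller was run. Of the members, 22 on HFD lay above the 99th percentile of UMIs of gated HFD cells. The antigen receptor libraries were not analysed here.

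UMIs were summed per group and given as CPM of the group's total, with 0.5 added to each sum for log2 ratios. The counts were not tested for differences, because each condition is 1 pool. Intervals are Clopper-Pearson for shares, exact Poisson for levels and exact binomial for the split of summed counts, all at 95% and for counting error only. Thinned shares are expected numbers from the hypergeometric distribution, rounded to whole cells. For the depth weighting, Il1r2-negative cells were weighted to the members' share in each of 10 depth bins. A floor of 3 counts stands for a count of 0.

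Genes named were the 12 highest and 12 lowest log2 ratios at 20 CPM or more (8 and 8 at 50 CPM between conditions), without the genes of the limits and antigen receptor and immunoglobulin genes. Also named were the given markers, Foxp3, Srebf2, Pparg and up to 4 genes farthest from 0 of each of 21 lists, and a few further genes chosen after their values were seen. Of the list genes, 2 were not among the 32285 gene rows under their symbols. Overlapping and near-identical genes, such as histone genes and Ly6c1 and Ly6c2, are uncertain. The ratio and interval code was tested on simulated counts. A gene named by the rule is not reported here. Python 3.11.15, numpy 2.4.6, scipy 1.17.1, pandas 2.3.3 and matplotlib 3.10.9 were used.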

Additional observations from a re-analysis of the deposited data

Results flagged for a closer look

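Hashtag 1, which labels no cell of the diet pool, had 4 counts there in sum, above a control level of 0 for Hashtag 2 in the same pool and Hashtag 3 in the Srebf2 pool. The 4 counts stand beside 3486144 counts of the NCD tag.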

How the results depend on the processing

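The share of the group moved past its counting interval as follows. With 2 or more Il1r2 UMIs it was 2.86% on HFD and 0.0810% on NCD, 0.329% in KO and 0.143% in WT. As a share of ST2-lacking cells it was 6.43% on HFD and 1.2% on NCD, 2.45% in KO and 1.38% in WT. On HFD it was 3.68% with cells thinned and 6.95% among cells with a Foxp3 UMI. In each of these settings it stood higher on HFD than on NCD and higher in KO than in WT. The KO and WT intervals overlapped, however, with cells thinned and as a share of ST2-lacking cells. With 2 or more Il1r2 UMIs the shares rested on 13 KO and 5 WT cells.

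Counts of genes past the fold followed the minimum and the fold. For HFD members against Il1r2-negative cells they were 511 higher and 418 lower at 50 CPM, 5640 and 3328 with no minimum, 381 and 215 at 2-fold, and 469 and 332 with depth weighting. For HFD against NCD members they were 621 and 1473, 1932 and 8053, and 803 and 1591 under the first 3 of these. For KO against WT members they were 840 and 1058 at 50 CPM, 2837 higher with no minimum, and 961 and 1268 at 2-fold.

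Log2 ratios that changed sign were as follows. With depth weighting they were those of Ccnb1 (−0.15), Stmn1 (−0.27), Top2a (−0.30), Jchain (0.023) and the proliferation median (−0.28), and without cycling cells that of Jchain (0.0090). Among cells with a Foxp3 UMI it was that of Tmem176a (0.16). The cause was not tested for these. Leaving out cells with 10 or more UMIs of the B cell and myeloid lists removes cells by the same genes that are then compared, so H2-Eb1 (−0.29), H2-Ab1 (−0.13), H2-Aa (−1.09) and the B cell median (−0.25) say nothing there of the source of those UMIs.

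Other sign changes had 3 or fewer UMIs, or none, in a group, come from the 0.5 added to each sum or from single UMIs, and carry no direction. Without cycling cells these were H1fx and Hist1h1a (−1.32 each, 0 UMIs in HFD members and 10 in Il1r2-negative cells) and, HFD against NCD, Hist1h1b and Hist1h2ap (−1.51 each, 3 UMIs and 0). Without cells holding other types' genes they were Col3a1 and Dcn (0.26 each, 0 and 3), Col1a1 (1.19, 1 and 5) and, KO against WT, Pid1 (−1.69, 0 and 0). Among cells with a Foxp3 UMI they were Col1a1 (2.03, 2 and 2), Arc (0.070, HFD against NCD, 14 and 0) and Pid1 (−1.34, KO against WT, 0 and 0). Leaving out cycling cells, weighting cells equally and leaving out cells with other types' genes were added after the data were seen. No paired analysis was possible because each condition is 1 pool of mice with no replicate.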
